A study of Homo sapiens with 24 samples.

Results

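The 10 genes described here belong to the BCL2 family, whose proteins set whether the outer mitochondrial membrane stays closed or opens during apoptosis. They were taken from the deposited table by symbol: the survival genes BCL2L1, BCL2L2, BCL2 and MCL1, the pore former BAK1, and BCL2L11, BMF, BIK, BID and BAD, which code for proteins of the BH3-only class. They account for 61 of the 119207 transcripts in the table, and for 10 of the 33127 genes to which those transcripts were joined. The transcript counts of each gene were summed, and those of BCL2L1 were also followed one by one. All cells were A549, an established human line from a lung adenocarcinoma, which was exposed to 100 nM of the synthetic glucocorticoid (GC) dexamethasone (dex) or to the vehicle ethanol (EtOH, 0.02% in the labels). RNA was taken at 6 time points of exposure, every 2 hours from 1 to 11 hours. The labels give 2 replicates per treatment and time, or 24 libraries in 12 groups, while the methods of the study state triplicates. A549 is a single tumor line, and nothing in the labels says whether the replicates came from separate cultures beyond calling them biological, so the tests measure the spread between these libraries.

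In this family the survival proteins BCL-XL (from BCL2L1), BCL-W (BCL2L2), BCL2 and MCL1 hold BAK and BAX in check. BH3-only proteins such as BIM (BCL2L11), BMF, BIK, BID and BAD bind the survival proteins, and some of them also activate BAK and BAX directly. Once active, BAK and BAX open pores through which cytochrome c leaves the mitochondrion and the caspases are switched on. GCs are known to kill many lymphoid cells through this pathway, with BIM among the genes involved, whereas epithelial cells commonly survive GC exposure.

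Each library held between 6708864 and 13748598 counts, with a median of 10109393.5. Of 7 genes chosen as known targets of GCs, 6 were called higher with dex at 1 hour and 7 at every later time point. Summed levels of 5 epithelial markers ranged from 3425 to 5476 CPM (counts scaled to the size of a library) with EtOH and from 4123 to 11314 CPM with dex, and all 5 were called over the mean of the time points, 3 higher and 2 lower. Those of 5 leukocyte markers did not exceed 4.10 CPM and those of 3 endothelial markers 1.13 CPM. The 5 fibroblast markers summed to 15.5 to 23.1 CPM with EtOH and 7.86 to 27.5 CPM with dex. Most of this sum was COL1A1, with means of 17.4 CPM with EtOH and 13.1 CPM with dex. Of 3 tested fibroblast markers, 2 were called lower over the mean of the time points, COL1A1 and COL3A1. At 3 hours COL1A1 was called higher. The part of these levels in the results was not tested, and in bulk libraries a smaller share of some cells and less RNA per cell cannot be told apart. Replicate libraries correlated at 0.984 or more, and none of the 12 pairs agreed within counting noise. In the following, a level is CPM after TMM normalization, a fold change is dex over EtOH, and a gene was called at an adjusted p of at most 0.1 (edgeR's quasi-likelihood F-test, Benjamini-Hochberg over all 15337 genes tested). BIK had too few counts to be tested, so that 9 of the 10 genes have test results.

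BCL2L1 and MCL1 are both made in a long form that protects cells and a short form that promotes death, and the 2 forms differ at exon junctions. The bases on either side of these junctions are shown because, within the coding sequence, only a read that crosses one, or that lies in the stretch the short form lacks, can tell the forms apart. Sequences are from the GENCODE 29 transcripts on GRCh38, both genes lie on the minus strand, and capitals mark the bases after the junction. For BCL2L1 the upstream exon ends at position 31721844 of chromosome 20 in the short form (170 residues) and at 31721655 in the long form (233 residues), and both continue at position 31666086. For MCL1 the first exon ends at 150578843 of chromosome 1, and the short form (271 residues) continues at 150577491 and the long form (350 residues) at 150578491. The long form has a further junction, not shown, from 150578244 to 150577491. The bases after the short-form junction of MCL1 therefore also occur in its long form.
BCL2L1 short form: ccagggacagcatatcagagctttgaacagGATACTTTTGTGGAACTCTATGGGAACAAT
BCL2L1 long form: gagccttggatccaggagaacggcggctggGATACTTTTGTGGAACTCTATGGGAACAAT
MCL1 short form: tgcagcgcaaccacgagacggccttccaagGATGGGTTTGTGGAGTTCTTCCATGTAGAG
MCL1 long form: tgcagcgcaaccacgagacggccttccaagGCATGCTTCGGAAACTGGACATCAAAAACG

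The stretch that the short form of BCL2L1 lacks is 189 bases long, or 63 codons, and lies at chr20:31721655-31721843 on the minus strand of GRCh38. It is printed because it is the coding sequence by which the long form differs.
BCL2L1 long form segment: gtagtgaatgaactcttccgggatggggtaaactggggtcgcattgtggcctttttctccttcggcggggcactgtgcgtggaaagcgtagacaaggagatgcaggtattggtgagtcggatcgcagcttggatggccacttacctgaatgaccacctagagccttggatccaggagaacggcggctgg

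MCL1 had the highest level of the 10 genes and rose 2.00-fold over the mean of the 6 time points. BCL2L1, the second highest of the 10, rose 1.48-fold, and BAK1 rose 1.26-fold. BCL2L11, BCL2, BMF and BID were called lower, although BMF and BCL2 rest on few counts and BID fell by only 0.12 on the log2 scale. For BCL2L2 and BAD no difference was detected. Of the 9 genes tested, 3 were called higher and 4 lower, where 16.9% of all genes tested were called higher and 18.9% lower. The median log2 fold change was -0.004 over the 9 genes and also -0.004 over all genes tested.

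Levels in the EtOH libraries, divided by the length of each gene's longest transcript, spanned from 104 CPM per kb ± 11.7 (SD, n = 12) for MCL1 to 0.152 ± 0.0641 for BMF. BCL2L1 stood at 32.0 CPM per kb ± 2.95, followed by BID at 14.1 ± 0.954, BCL2L11 at 11.7 ± 1.12 and BCL2L2 at 7.60 ± 0.770. BAK1 followed at 4.27 CPM per kb ± 0.455 and BAD at 2.48 ± 0.741, while BIK was at 0.283 ± 0.209 and BCL2 at 0.223 ± 0.0875. Neighbors in this order whose libraries overlapped were BID with BCL2L11, BAK1 with BAD, and BIK with BCL2 and BMF. With dex the level of MCL1 per kb was 208 CPM ± 34.2 and that of BCL2L1 47.9 ± 9.03, and the order of the 5 highest genes was the same as with EtOH.

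**Figure D1:**
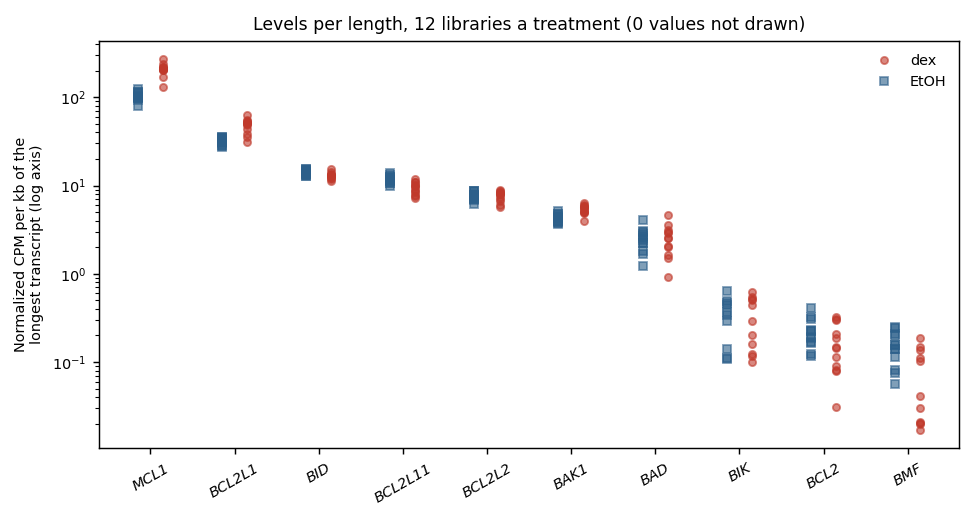
Level of each gene in normalized CPM per kb of its longest transcript (log axis), with 1 point per library, from 12 EtOH (squares) and 12 dex (circles) libraries. Libraries at 0 are not drawn (BIK in 2 EtOH libraries and 1 dex library, BMF in 1 dex library). MCL1 (mean 104 with EtOH and 208 with dex) lies above every other gene, and BIK, BCL2 and BMF lie lowest, with EtOH means from 0.283 down to 0.152.

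Among the survival genes, MCL1 codes for a short-lived protein that holds BAK and BIM. Its level ran from 312 to 489 CPM in the 12 EtOH libraries (median 397) and from 508 to 1062 CPM in the 12 dex libraries (median 828). No dex library fell within the EtOH range. The mean was 407 CPM ± 46.0 (SD, n = 12) with EtOH and 820 ± 134 with dex, a log2 fold change of 1.00 ± 0.05 (SE) with an adjusted p of 3.00e-14. MCL1 was called at all 6 time points. At 1 hour the 2 dex libraries stood at 661 and 508 CPM and the 2 EtOH libraries at 390 and 389 CPM, a log2 fold change of 0.59 ± 0.12 (adjusted p = 0.0162). At this time point 0.626% of genes tested were called higher and 0.411% lower, and MCL1 was the 1 gene of the 10 among them. The log2 fold change of MCL1 was 0.84 at 3 hours, 1.04 at 5 hours, 1.02 at 7 hours, 1.29 at 9 hours and 1.20 at 11 hours. Its difference between time points was itself called (adjusted p = 0.0823), as for 15.4% of all genes tested. The call at 1 hour was lost without either EtOH library of that time point (adjusted p = 0.161 and 0.236, where the other alternatives reached down to 3.28e-12), and the difference between time points was lost when any of 15 of the 24 libraries was left out (up to 0.214).

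BCL2L1 codes for BCL-XL, which holds BAX, BAK and several BH3-only proteins. Its level was 71.0 to 93.7 CPM with EtOH (median 83.0) and 81.2 to 164 CPM with dex (median 131). The groups overlapped only through dex libraries of 1 and 3 hours, and every dex library from 5 hours on lay above every EtOH library. Means were 83.4 CPM ± 7.69 (SD, n = 12) with EtOH and 125 ± 23.6 with dex, a log2 fold change of 0.57 ± 0.05 (SE, adjusted p = 1.24e-10). At 1 hour the dex libraries stood at 81.2 and 99.4 CPM against 82.3 and 90.3 CPM with EtOH, with a log2 fold change of 0.06 ± 0.13 (adjusted p = 0.994). The gene was called from 3 hours on, when dex libraries held 115 and 93.6 CPM and EtOH libraries 79.7 and 81.9 CPM (log2 fold change 0.36 ± 0.11, adjusted p = 0.033). The log2 fold change was 0.55 at 5 hours, 0.95 at 7 hours, 0.59 at 9 hours and 0.87 at 11 hours. These fold changes differed between time points (adjusted p = 0.00269). At 7 hours the dex libraries held 141 and 137 CPM and the EtOH libraries 71.0 and 72.6 CPM, the lowest pair of the EtOH series. The call at 3 hours was lost without dex replicate 1 (adjusted p = 0.509, the highest over the alternatives, against a lowest of 0.00453) or without EtOH replicate 1 (0.167), with DESeq2 (0.109) and with 1 transcript per gene (0.112). Those at 9 and 11 hours were lost without dex replicate 2 (0.101) and without EtOH replicate 2 (0.103).

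BCL2L2, which codes for BCL-W, had 20.5 to 31.7 CPM with dex and 22.4 to 31.3 CPM with EtOH. The groups overlapped throughout their range, and the log2 fold change over the mean of the 6 time points was -0.004 ± 0.06 (SE, adjusted p = 0.973). It was called at no time point. Of the 50-base windows of its transcripts, 17.9% also occur in the read-through gene BCL2L2-PABPN1, and with the counts of that gene and PABPN1 added the adjusted p was 0.997.

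BCL2, the founding member of the family, was near the limit of detection, with 194 counts over the 12 EtOH libraries and 137 over the 12 dex libraries. At 1 hour the dex libraries held 21 and 15 counts (2.21 and 2.42 CPM) and the EtOH libraries 10 and 16 counts (0.918 and 1.22 CPM). That difference, a log2 fold change of 1.08 ± 0.42, was not called (adjusted p = 0.551). At 5 hours the dex libraries held 2 and 5 counts against 8 and 19 with EtOH (log2 fold change -1.64 ± 0.63, adjusted p = 0.0586), and at 11 hours 15 and 7 counts against 23 and 21 (-1.40 ± 0.45, adjusted p = 0.0951). At 7 and 9 hours dex libraries were also below both EtOH libraries in CPM, with log2 fold changes of -0.86 and -0.74 that were not called. The effect of dex differed between time points (adjusted p = 0.0239), so that the log2 fold change of -0.54 ± 0.19 (SE, adjusted p = 0.0331) over the mean of the 6 time points averages values of both signs. The ratio of pooled counts, scaled for library size, was 0.771, with a 95% interval from 0.615 to 0.964 that covers counting error only. Over the alternatives the adjusted p at 5 hours ran from 0.0502 to 0.504, where the call was lost with DESeq2 and without dex replicate 1 or EtOH replicate 2 (log2 fold change -1.05), and that at 11 hours from 0.00383 to 0.434, where it was lost with DESeq2, with 1 transcript per gene and without dex replicate 2 or either EtOH replicate. Over the mean of the 6 time points it was lost without EtOH replicate 2 of 5 hours (adjusted p = 0.112).

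**Figure D2:**
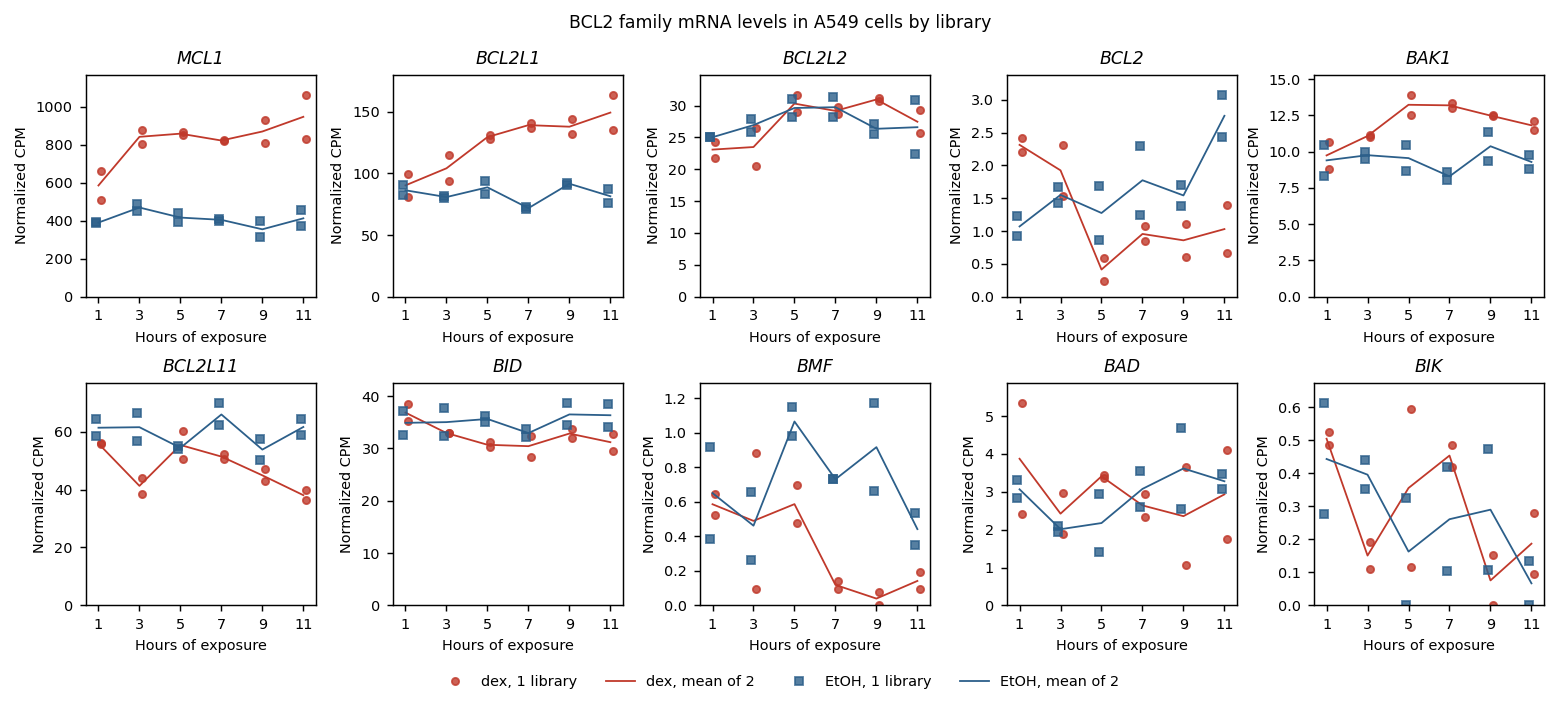
Normalized CPM of each gene against hours of exposure, with 1 point per library (dex circles, EtOH squares) and a line through the mean of the 2 libraries of each treatment. Dex libraries of MCL1 (508 to 1062 CPM) lie above all EtOH libraries (312 to 489 CPM), BCL2L1 separates from 5 hours on, and BCL2, BMF and BIK stay at or below a few CPM.

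BAK1 codes for the pore former BAK. Its level was 8.02 to 11.4 CPM with EtOH (median 9.45) and 8.82 to 13.9 CPM with dex (median 12.3), so that the groups overlapped over the series. The log2 fold change over the mean of the 6 time points was 0.33 ± 0.07 (SE, adjusted p = 0.000424). At 5 hours the dex libraries held 12.5 and 13.9 CPM against 10.4 and 8.67 with EtOH (log2 fold change 0.48 ± 0.19, adjusted p = 0.0784), and at 7 hours 13.35 and 13.04 against 8.57 and 8.02 (0.67 ± 0.18, adjusted p = 0.00368). It was not called at 1, 3, 9 or 11 hours, with log2 fold changes of 0.04, 0.18, 0.27 and 0.34. A difference of its fold change between time points was not shown (adjusted p = 0.421). The call at 5 hours was lost without dex replicate 2 or EtOH replicate 2, with DESeq2, with no filter and with 1 transcript per gene, and its adjusted p ran from 0.0508 to 0.407 over the alternatives.

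At 5 hours 3 members were called higher and 1 lower, beside 12.4% and 12.6% of all genes tested. At 7 hours 3 were called higher and 2 lower, beside 14.3% and 14%. MCL1, BCL2L1 and BAK1 were the genes called higher at both time points, and BCL2 at 5 hours and BCL2L11 and BMF at 7 hours were those called lower.

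Of the 5 BH3-only genes, BCL2L11 had the most counts. It codes for BIM, which binds all of the survival proteins. Its level was 50.2 to 69.7 CPM with EtOH (median 58.7) and 36.4 to 60.0 CPM with dex (median 48.8). The groups overlapped, and means were 59.8 CPM ± 5.68 (SD, n = 12) with EtOH and 47.8 ± 7.60 with dex. BCL2L11 fell by 0.33 on the log2 scale over the mean of the 6 time points (SE 0.05, adjusted p = 2.45e-06). At 3 hours the dex libraries held 38.6 and 43.9 CPM against 66.3 and 56.7 with EtOH (log2 fold change -0.57 ± 0.12, adjusted p = 0.0015). At 5 hours they held 60.0 and 50.7 CPM against 53.8 and 55.0, with a log2 fold change of 0.03 ± 0.12. The gene was called lower again at 7 hours (-0.36 ± 0.10) and at 11 hours (-0.69 ± 0.15), when the dex libraries held 39.7 and 36.4 CPM against 64.3 and 58.9. The fold changes differed between time points (adjusted p = 0.0246). The call at 7 hours was lost without either dex library (adjusted p = 0.108 and 0.132), and that at 11 hours without either EtOH library (0.310 and 0.122), where the lowest over the alternatives were 0.000431 and 8.57e-08.

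BMF, whose protein is bound by the dynein light chain until it is released, had 85 counts over the 12 EtOH libraries and 34 over the 12 dex libraries. No EtOH library was at 0, and the counts there ran from 3 to 13. With dex they ran from 0 to 8. From 7 hours on, no dex library held more than 2 counts, and no EtOH library held fewer than 3. The log2 fold change was -1.47 ± 0.36 (SE, adjusted p = 0.00193) over the mean of the 6 time points. The ratio of pooled counts over all libraries was 0.437 (95% interval 0.284 to 0.657, counting error only). Pooled counts with dex and EtOH were 9 and 15 at 1 hour, 9 and 9 at 3 hours and 10 and 22 at 5 hours. At 11 hours they were 3 and 7, and none of these time points was called. BMF was called lower at 7 hours, with 1 count in each dex library against 7 in each EtOH library (adjusted p = 0.0454), and at 9 hours, with 0 and 1 counts against 7 and 11 (adjusted p = 0.0197). The ratios of pooled counts, scaled for library size, were 0.157 at 7 hours (95% interval 0.0174 to 0.685, counting error only) and 0.0578 at 9 hours (0.00139 to 0.366). The call at 7 hours was lost without either dex library (adjusted p = 0.330 and 0.201, against a lowest of 0.0456 over the alternatives), and DESeq2 gave no adjusted p for BMF at 7 or 9 hours. A difference of its fold change between time points was not shown (adjusted p = 0.205), except without dex replicate 2 of 3 hours (0.0626). Of the windows of BMF, 6.80% lie antisense to BMF-AS1, and the use of strand in counting is not stated.

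BID codes for a protein that caspase-8 cuts into an active fragment, which links death receptors to mitochondria. It had 32.2 to 38.6 CPM with EtOH (median 34.8) and 28.4 to 38.4 CPM with dex (median 32.6). The groups overlapped, and the log2 fold change of -0.12 ± 0.05 (SE) was called over the mean of the 6 time points (adjusted p = 0.0739) and at none of the single time points. That call was lost with DESeq2, with no filter and without any of 12 of the 24 libraries, and its adjusted p ran from 0.0445 to 0.175 over the alternatives. BAD, whose protein is held inactive by phosphorylation and 14-3-3 proteins, had 1.06 to 5.33 CPM with dex and 1.42 to 4.68 CPM with EtOH. Its log2 fold change was 0.06 ± 0.19 (SE, adjusted p = 0.849) and turned negative without 1 of 4 libraries, and 18% of its windows lie antisense to GPR137. BIK, which sits in the endoplasmic reticulum membrane, had 30 counts with dex and 34 with EtOH and at most 8 in a library. The ratio of pooled counts was 0.963, with a 95% interval from 0.569 to 1.62 that covers counting error only. That interval is not a limit of detection, and the counts are too few to say whether BIK changed.

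At 3 hours MCL1 and BCL2L1 were called higher and BCL2L11 lower, beside 8.43% and 5.81% of all genes tested. At 9 hours MCL1 and BCL2L1 were called higher and BMF lower, beside 10.1% and 9.59%. At 11 hours MCL1 and BCL2L1 were called higher and BCL2L11 and BCL2 lower, beside 5.56% and 3.53%.

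**Figure D3:**
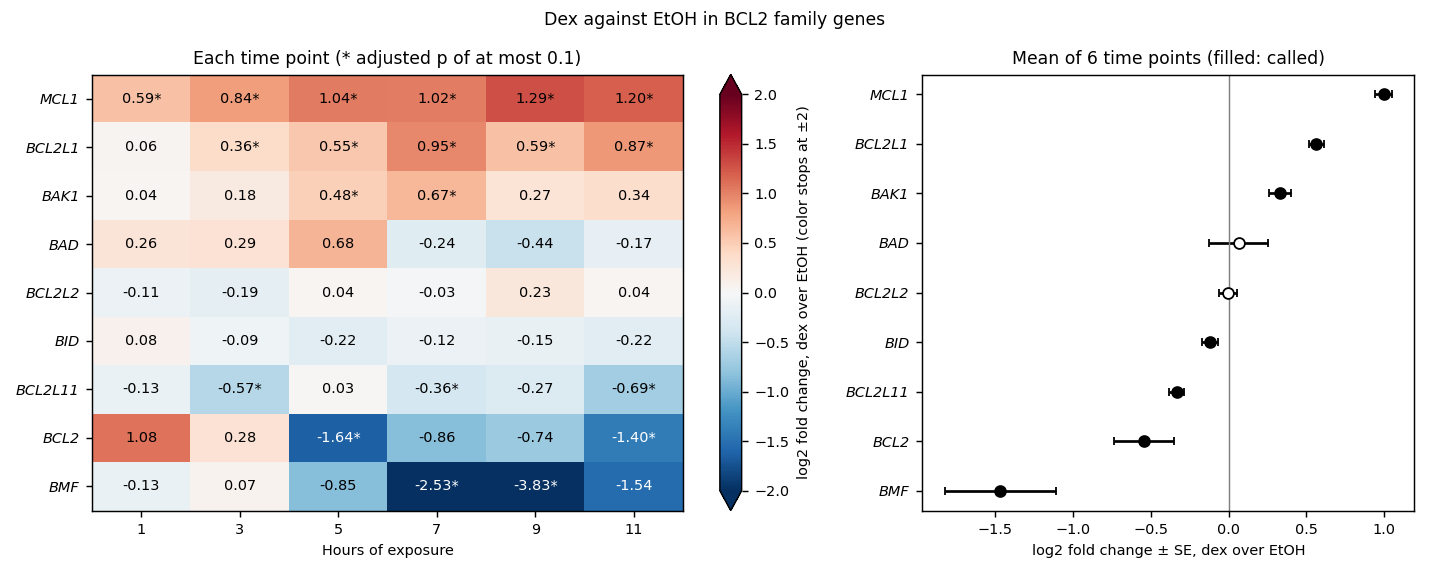
Log2 fold change of dex over EtOH for the 9 genes tested, by hours of exposure (left, colors stop at 2 in either direction, a star marks a call) and over the mean of the 6 time points with its SE (right, filled points are called). MCL1 and BCL2L1 carry stars in most columns, and BMF has the widest SE (0.36).

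The transcripts of BCL2L1 rose together. Each of the 9 was tested and called higher over the mean of the 6 time points, with log2 fold changes from 0.51 to 0.78, where 11.9% of 56380 transcripts were called higher and 12.3% lower. BCL2L1-202, which codes for the short form, had 0.55 ± 0.06 (SE), and the complete long-form transcripts BCL2L1-201 and BCL2L1-203 had 0.54 ± 0.06 and 0.53 ± 0.06. The other 6, BCL2L1-204, BCL2L1-205, BCL2L1-206, BCL2L1-207, BCL2L1-208 and BCL2L1-209, have partial coding sequences, of which BCL2L1-208 had the highest value (0.78 ± 0.12) and BCL2L1-205 the lowest (0.51 ± 0.10). By time point, none of the 9 transcripts was called at 1 or 3 hours, 7 at 5 hours, all 9 at 7 hours, 4 at 9 hours and 7 at 11 hours, which makes 27 calls where DESeq2 made 13. All of these calls were in the direction of higher levels. The share of all transcripts called higher was 0.275% at 1 hour, 4.36% at 3 hours, 7.37% at 5 hours, 8.57% at 7 hours, 5.84% at 9 hours and 3.26% at 11 hours.

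The counts of single BCL2L1 transcripts do not give the levels of the 2 protein forms. BCL2L1-202 holds 24.5% of the counts of the gene, BCL2L1-201 25.5% and BCL2L1-203 24.4%. Yet of the 2334 windows of 50 bases in the short-form transcript, only 47 (2.01%) are absent from the 2 complete long-form transcripts. BCL2L1-201 has 0 windows of its own among 2561 and still holds those counts. The sources used here do not state where a read was placed when it matched more than 1 transcript. The share of BCL2L1 counts on the short-form transcript was 24.6% ± 0.977 (SD, n = 12) with EtOH and 24.5% ± 1.60 with dex, a difference of -0.156 percentage points (p = 0.772, two-sided exact permutation test within time points). Because nearly all of these counts come from windows that both forms contain, the test does not show that the proportion of the forms stayed the same.

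**Figure D4:**
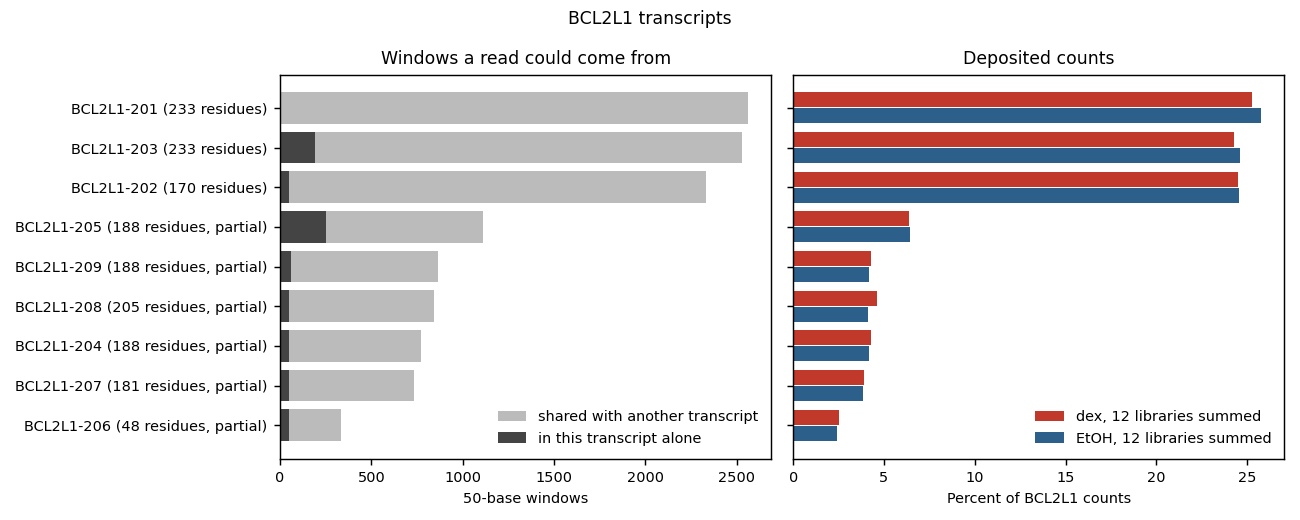
For the 9 transcripts of BCL2L1, the number of 50-base windows found in that transcript alone (dark) or shared with another (light), and each transcript's percent of the gene's counts summed over 12 dex or 12 EtOH libraries. BCL2L1-201 has 0 windows of its own and 25.5% of the counts.

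For MCL1 the long-form transcript MCL1-202 held 96.8% of the counts and the short-form transcript MCL1-201 3.21%, and their log2 fold changes over the mean of the 6 time points were both 0.99. In MCL1-201, 47 of 1061 windows are its own. BCL2L11-206, the transcript of the 198-residue form of BIM, held 88.2% of the counts of its gene and fell by 0.34 on the log2 scale (SE 0.05). BCL2-202 held 65.9% of the BCL2 counts and fell by 0.70, and BCL2-201, with 28.7%, had too few counts to be tested. BAK1-202 and BAK1-203 held 43.0% and 43.4% of the BAK1 counts and rose by 0.30 and 0.36, and BAK1-201 had 0.31 and was not called. BCL2L2-201, with 87.3% of the counts of its gene, had a log2 fold change of 0.01. BID-201, BID-203, BID-204 and BID-205 each held between 19.7% and 22.9% of the BID counts, and none of them was called. Of the BAD transcripts, BAD-203 and BAD-201 were tested and had 0.01 and 0.02, and BAD-202 and BAD-207 were not tested. BMF-201, BMF-202 and BIK-201 were not tested either. In all, 31 of the 61 transcripts were tested, of which 13 were called higher and 2 lower, where 11.9% and 12.3% of all transcripts tested were called. Of these 13, 9 are the BCL2L1 transcripts, whose counts come largely from windows they share. BAK1-202 has 0 windows of its own among 2087 and BAK1-203 has 66 among 2163, while MCL1-202 has 2869 among 3883. The calls of transcripts of the same gene are therefore not separate results.

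Other genes of the pathway were taken as 5 lists written from the known roles of the genes. Among 13 other BCL2 family genes, 11 were tested. Of these, 1 was called higher and 3 lower over the mean of the 6 time points, beside 16.9% and 18.9% of all genes tested. HRK, a BH3-only gene known mostly from neurons, rose by 1.85 on the log2 scale (SE 0.20) from a low level, with 93 counts over the EtOH libraries and 361 over the dex libraries. Its log2 fold change was -0.85 ± 0.59 at 1 hour, not called, and 2.97 ± 0.38 at 7 hours. BCL2A1, a survival gene and target of NF-kB, fell by 1.03 (SE 0.09), and BBC3, which codes for the BH3-only protein PUMA, fell by 0.39 (SE 0.15). The call of BBC3 was lost with DESeq2 and without any of 8 of the 24 libraries, with adjusted p from 0.0259 to 0.165 over the alternatives. The 1 gene of this list called at 1 hour, named after its values were seen, was PMAIP1, which codes for the BH3-only protein NOXA, with a log2 fold change of 0.89 ± 0.15 (SE, adjusted p = 0.00284). At 5 hours it was called lower, with -0.72 ± 0.16 (adjusted p = 0.000596).

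Of the 13 genes of the apoptosome and caspases, 2 were called higher and 4 lower over the mean of the 6 time points. Of all genes tested, 16.9% and 18.9% were called. CFLAR, which codes for the inhibitor c-FLIP that blocks caspase-8, rose by 0.49 (SE 0.04), and CYCS, the gene of cytochrome c, rose by 0.18 (SE 0.04). CASP2 fell by 0.34 (SE 0.05) and CASP10 by 0.26 (SE 0.09). Of 8 tested inhibitors of apoptosis proteins and antagonists, 3 were called higher and 2 lower over the same mean. BIRC3, which codes for the ubiquitin ligase cIAP2, rose from 43.8 CPM ± 6.02 to 179 ± 18.2 (SD, n = 12), a log2 fold change of 2.03 ± 0.06 (SE), and was called at all 6 time points. XIAP, which codes for a direct caspase inhibitor, rose by 0.25 (SE 0.05), while BIRC7 fell by 0.69 (SE 0.15) and BIRC5, the survivin gene, by 0.21 (SE 0.04).

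Among 17 tested regulators of the family, 6 were called higher and 3 lower over the mean of the 6 time points. Of all genes tested, 16.9% and 18.9% were called. FOXO1, a transcription factor that acts on BCL2L11, rose by 1.60 (SE 0.08), and PIM3, a kinase that phosphorylates BAD, rose by 1.41 (SE 0.09). E2F1, a transcription factor of the cell cycle, fell by 0.65 (SE 0.06). That mean averages values of both signs, with 0.23 ± 0.12 at 3 hours, not called, and -1.56 ± 0.13 at 5 hours. Of 13 tested splicing factors reported to act on BCL2L1, none was called higher and 1 lower over the mean of the 6 time points. That gene, PTBP1, fell by 0.13 (SE 0.04). By single time point, RBM10 was called higher at 3 hours (log2 fold change 0.51 ± 0.16). At each of 1, 5, 7 and 9 hours 1 of the splicing factors was called lower. The median log2 fold change was 0.04 in the other BCL2 family genes, -0.09 in the apoptosome and caspases, 0.08 in the inhibitors, 0.03 in the regulators and -0.01 in the splicing factors, against -0.004 over all genes tested.

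**Figure D5:**
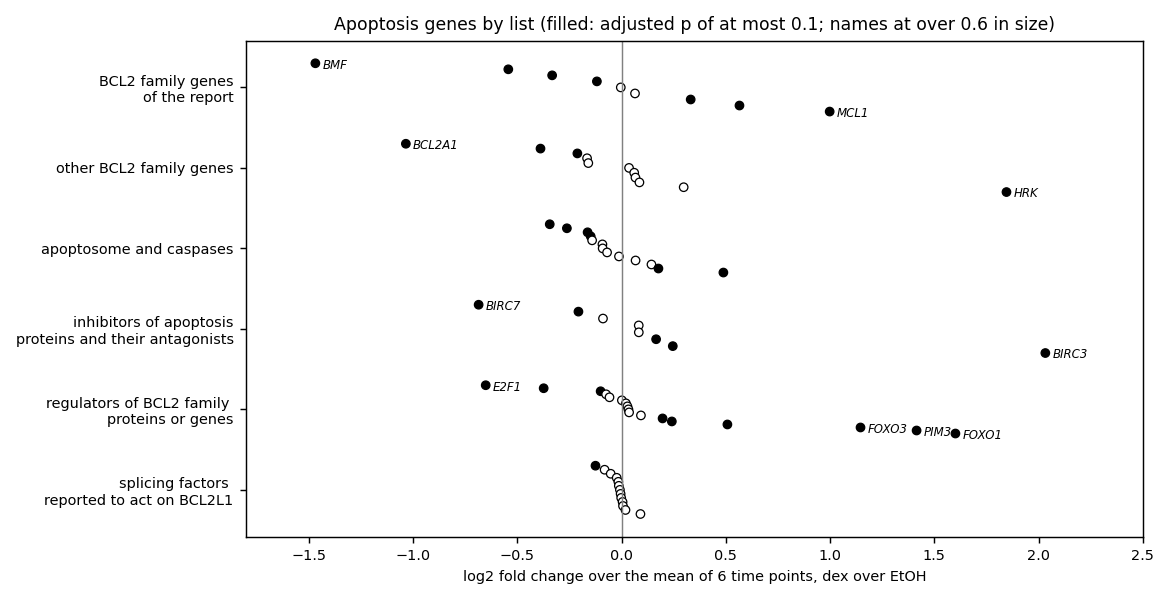
Log2 fold change of dex over EtOH over the mean of the 6 time points, with 1 point per tested gene in the 9 members and the 5 other lists, filled where called. BIRC3 (2.03), HRK (1.85) and FOXO1 (1.60) lie farthest to the right, and BMF (-1.47) and BCL2A1 (-1.03) farthest to the left.

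Over the 24 libraries, the genes whose log2 CPM followed that of BCL2L1 most closely were PVR (Pearson's r = 0.967), RAB11FIP3 (0.962), STAT3 (0.959), MYEOV (0.954) and TSPAN9 (0.953). STAT3 is also among the regulators listed. These coefficients describe libraries that share treatment and time of exposure, and the log2 fold changes of the 5 genes over the mean of the 6 time points ran from 0.51 to 0.96.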

How the data were processed

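The authors sequenced stranded poly-A libraries as single-end reads (50 bases), mapped them to GENCODE 19 transcripts with Bowtie and counted reads per transcript with samtools. The deposited values are counts, not divided by library size or length. How reads matching several transcripts were placed is not given in the sources used here. One label states 1 hour throughout, and the duration label was used instead. Transcripts were joined to GENCODE 29 genes by identifier without version (110262 matched, 94.1% of counts, and 8945 unmatched). Counts summed per gene were tested with edgeR 4.0.16 (TMM, filterByExpr, robust quasi-likelihood F-test) at each time point by itself, and in 1 fit over 24 libraries for the mean of 6 time points and for treatment by time. The SE was derived as the size of the log2 fold change over the root of F. Scripts were tested on simulated data. Shares were compared by an exact permutation test, and the intervals of pooled count ratios were exact binomial intervals (scipy). The members and lists were chosen with earlier results of these data known. All 10 members were named; from each pathway list, up to 2 genes called higher and 2 called lower with the largest log2 fold change; transcripts with at least 10% of a member's counts and all of BCL2L1; and the 5 genes closest to BCL2L1. One gene that this rule names is not reported here. Alternatives were DESeq2 and its size factors, other filters, a replicate block, a threshold of 0.05, 1 fit for all time points, 1 transcript per gene, unmatched transcripts kept, and each library left out.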

Additional observations from a re-analysis of the deposited data

Results flagged for a closer look

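In 4 of the 9 members tested the effect of dex differed between time points, beside 15.4% of all genes tested. The test was that of treatment by time in edgeR's quasi-likelihood fit over 24 libraries (Benjamini-Hochberg adjusted over all genes tested). The adjusted p was 0.00269 for BCL2L1, 0.0239 for BCL2, 0.0246 for BCL2L11 and 0.0823 for MCL1. The call of MCL1 was lost when any of 15 of the 24 libraries was left out. In BCL2L1 the log2 fold change ran from 0.06 at 1 hour to 0.95 at 7 hours, and in BCL2 from 1.08 at 1 hour to -1.64 at 5 hours. In BCL2L11 it was -0.69 at 11 hours and 0.03 at 5 hours, and in MCL1 it was 0.59 at 1 hour and 1.29 at 9 hours.

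Among the pathway genes named, the same test gave an adjusted p of 1.08e-06 for E2F1, 9.63e-05 for FOXO1, 0.00278 for HRK and 0.00448 for PIM3. For STAT3 and PMAIP1, named outside the rule for the lists, the adjusted p was 0.000499 and 0.000509. It was 0.0274 for BIRC5, 0.0791 for CFLAR, 0.0859 for CYCS and 0.0940 for CASP2.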

How the results depend on the processing

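Over the mean of the 6 time points, MCL1, BCL2L1, BAK1, BCL2L11 and BMF kept their direction and their call under every alternative that tested them. With each library left out in turn, which assumes that a lone library varies like the others, the members called ranged from 0 to 1 at 1 hour, 2 to 3 at 3 hours, 2 to 5 at 5 hours, 3 to 6 at 7 hours, 3 to 4 at 9 hours, 1 to 4 at 11 hours and 5 to 7 over the mean. At 5 hours 2 members were called with DESeq2 and 2 at a threshold of 0.05, and 13 BCL2L1 transcript calls were made with DESeq2. The log2 fold change of BCL2L2 ran from -0.0387 to 0.0388 without single libraries and was 0.00036 with its read-through gene counted, and that of BAD ran from -0.15 to 0.16. The difference in the BCL2L1 short-form share was 0.140 percentage points among complete coding sequences and ran from -0.303 to 0.0742 without single libraries. Over all genes, DESeq2 called 1208, 2348, 2464 and 1831 genes at 3, 5, 7 and 9 hours where edgeR called 2184, 3834, 4342 and 3021. At 1 hour 159 genes were called, 251 with no filter and 579 with the replicate block, and at 11 hours 1394 genes, or 2475 with 1 fit over 24 libraries. Without single libraries these counts ran from 88 to 703 at 1 hour, 1293 to 2442 at 3 hours, 2225 to 5047 at 7 hours, 1436 to 5304 at 9 hours and 711 to 4945 at 11 hours, and the genes whose effect differed between time points from 1643 to 3958. The cause was not tested.

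The methods of the study name a paired vehicle control, and the main tests used no pairing. Correlations of same-numbered deviations lay between -0.068 and 0.157 over the 6 time points, which cannot show whether replicate numbers pair the libraries. With a replicate block the genes called went from 159 to 579 at 1 hour and from 3021 to 4345 at 9 hours. At 3 hours they went from 2184 to 1857, at 5 hours from 3834 to 3976 and at 7 hours from 4342 to 4467. At 11 hours they went from 1394 to 1761, and over the mean of the 6 time points from 5499 to 5660. With the replicate block 7 members were called over the mean of the 6 time points, as without it, and 1, 3, 4, 5, 3 and 4 members at the single time points, again as without it. The counts of BMF, BCL2 and BIK limit what could be seen in them at this depth.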
